A study of Mus musculus with 2 samples.

Results

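Of the 19202 genes in the deposited table, 9 are described here: the thymosins Tmsb4x and Tmsb10, the MARCKS family members Marcks and Marcksl1, the cofilin Cfl1, the profilins Pfn1 and Pfn2, and the cytoplasmic actins Actb and Actg1. They were picked by symbol as highly counted genes of the actin cytoskeleton, with earlier results of these data known, so their levels and their differences are a description and carry no test. RNA sequencing had compared the telencephalon of H2AZ cKO embryos, a conditional knockout of the histone variant H2A.Z, with that of H2AZ fl/fl embryos, which carry the floxed alleles. Both groups were of the C57BL/6 strain background at embryonic day 12, and the protocol names cerebral cortex as the dissected tissue. The sources used here do not give the Cre driver or the cells that carry the deletion. Each genotype had 1 column of read counts, called a library below. The series text mentions triplicates without saying whether a column pools them, so no difference below has a replicate check, and no test of genotype could be run.

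Actin cycles between single molecules and filaments. Thymosins hold single actin molecules in reserve, profilins deliver them to growing filament ends, and cofilin severs old filaments and returns their subunits to the pool. MARCKS proteins sit at the inner face of the plasma membrane, where they bind filaments, calmodulin and phosphoinositides and are released by protein kinase C. In the developing forebrain this machinery shapes dividing progenitors, migrating neurons and growth cones.

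The coding sequences of both thymosins are shown because these genes had the highest H2AZ cKO to H2AZ fl/fl ratios of the 9, and to show how far they differ from each other. Both run 5′ to 3′ on the sense strand and come from the GENCODE M21 transcripts on GRCm38, with capitals marking the bases that differ.
Tmsb4x: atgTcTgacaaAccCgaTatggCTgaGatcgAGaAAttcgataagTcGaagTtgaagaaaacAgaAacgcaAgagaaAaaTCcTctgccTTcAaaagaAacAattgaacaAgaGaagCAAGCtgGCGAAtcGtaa
Tmsb10: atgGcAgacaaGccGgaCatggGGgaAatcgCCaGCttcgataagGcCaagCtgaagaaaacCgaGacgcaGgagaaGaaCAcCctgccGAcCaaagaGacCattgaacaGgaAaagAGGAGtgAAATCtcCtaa
Each coding sequence has 135 bases, of which 95 are identical (70.4%), and the longest identical run has 10 bases. The cytoplasmic actins are closer, with 1000 of 1128 coding bases identical (88.7%) and a longest identical run of 62 bases. Their first 60 coding bases are shown because this stretch encodes the start of the protein, where these actins are known to differ. The 9 capitals again mark the differing bases.
Actb: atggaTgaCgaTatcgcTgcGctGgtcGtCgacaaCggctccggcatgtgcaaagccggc
Actg1: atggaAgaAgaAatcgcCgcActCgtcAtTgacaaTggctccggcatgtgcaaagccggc

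The H2AZ cKO library held 8839840 counts and the H2AZ fl/fl library 8891198. H2afz, which encodes H2A.Z, stood at 191 CPM (counts scaled by library size) in H2AZ cKO, against 289 CPM in H2AZ fl/fl, a ratio of 0.661. Ratios below are of TMM-scaled counts, with a 95% interval in brackets that covers counting error only, because each genotype has 1 library. The interval treats reads as independent molecules. The reads carry no molecular identifiers, so it may be too narrow even for counting error. Emx1, a cortical gene looked up after other values had been seen, stood at 135 CPM in H2AZ cKO, against 117 CPM in H2AZ fl/fl. Summed markers of apical progenitors stood at 2755 CPM in H2AZ cKO, against 2502 CPM in H2AZ fl/fl. Of the 9 progenitor markers 8 were higher in H2AZ cKO, and the interval lay wholly above 1 for 7 and wholly below 1 for 0. Summed markers of postmitotic neurons stood at 6955 CPM in H2AZ cKO, against 6849 CPM in H2AZ fl/fl. Tubb3 alone held 2336 CPM of this sum in H2AZ cKO, against 2165 CPM in H2AZ fl/fl. Of the 10 neuron markers 7 were higher in H2AZ cKO, and the interval lay wholly above 1 for 2 and wholly below 1 for 3. Over all genes that reached 1 CPM, 51% were higher, and the interval lay wholly above 1 for 12.6% and below 1 for 11.2%. The libraries also differed in Xist, the X-inactivation RNA, with 732 CPM in H2AZ cKO, against 22.2 CPM in H2AZ fl/fl. The sex of the embryos is not among the sample labels used here. If its make-up differed between the libraries, it cannot be told apart from genotype in any ratio given here.

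All 9 genes were higher in H2AZ cKO, with 121388 counts together, against 104802 counts in H2AZ fl/fl. They took 1.37% of all counts in H2AZ cKO, against 1.18% in H2AZ fl/fl, a summed ratio of 1.20 (1.19 to 1.21). The thymosins had the highest ratios, Marcksl1 and Marcks came next, and Pfn2 and Actg1 were nearest to 1. The counting interval lay wholly above a ratio of 1 for all 9 genes, as it did for 12.6% of the 14586 genes that reached 1 CPM in their higher library. Among the 406 genes at least as abundant as the lowest of the 9, Pfn1, this share was 59.6%, but most of these are less counted than the 9 other than the profilins and so have wider intervals. Those other 7 are among the 51 most abundant genes, of which 82.4% had an interval wholly above 1. A log2 ratio above 0 was found for all 9, for 51% of genes that reached 1 CPM and for 75.4% of the 406. Among the 406 this share went with transcript length. It was 96.7% under 1000 bases (with Tmsb4x, Tmsb10 and Pfn1) and 96.9% from 1000 to 2000 (Marcksl1, Actb and Actg1). From 2000 to 4000 bases (Cfl1 and Pfn2) it was 82.1%, and for longer transcripts (Marcks) 43.2%.

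A level at least 25% higher in H2AZ cKO was reached by 2 of the 9, both thymosins, against 7.94% of all genes that reached 1 CPM and 2.46% of the 406. A level at least 10% higher was reached by 7 of the 9, against 25.3% of all and 35% of the 406, while 25.6% of all and 6.4% of the 406 were lower past the same 1.1-fold size. None of the 9 was 50% higher, a size that 1.92% of all and 0.246% of the 406 reached. The choice of genes used these ratios, so nothing is read from the excess. In bulk tissue, a change in the number of cells of a type and a change in RNA per cell cannot be told apart. This holds for every ratio below.

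**Figure D1:**
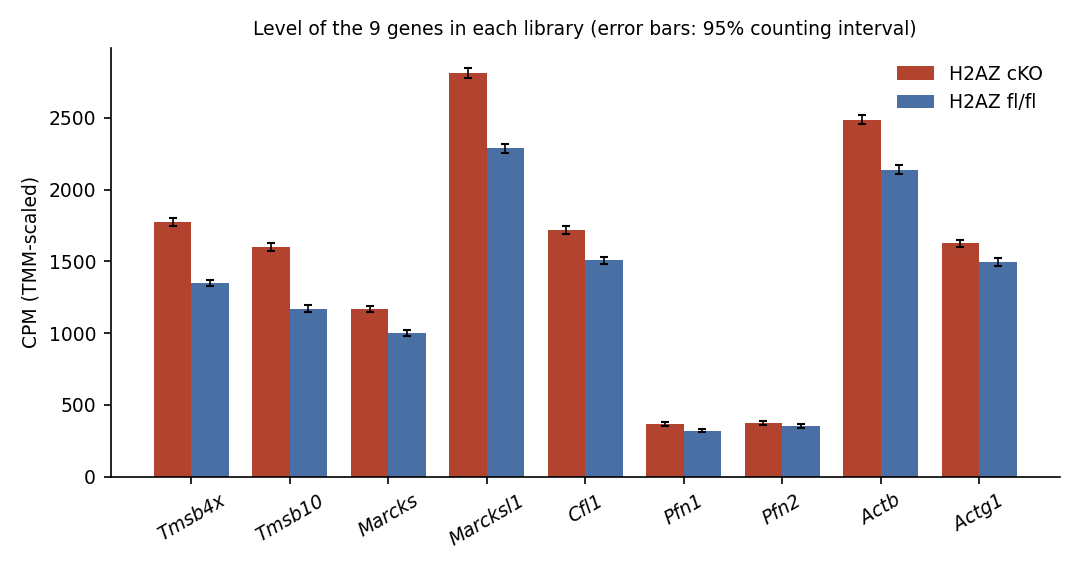
Level of each of the 9 genes in CPM in the H2AZ cKO library (left bar of each pair) and the H2AZ fl/fl library (right bar), 1 library each, with bars for the 95% counting error. The H2AZ cKO bar is the taller in all 9 pairs.

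Tmsb4x, which encodes thymosin β4, an abundant actin-sequestering peptide, had 15451 counts in H2AZ cKO, against 12159 counts in H2AZ fl/fl. Its level was 1773 CPM in H2AZ cKO, against 1348 CPM in H2AZ fl/fl, a ratio of 1.31 (1.28 to 1.35) and a log2 ratio of 0.39. The gene lies on chrX:167207093-167209315, minus strand (ENSMUSG00000049775, GRCm38). Its paralog Tmsb10, which encodes thymosin β10, had 13957 counts in H2AZ cKO, against 10552 counts in H2AZ fl/fl. At 1601 CPM in H2AZ cKO, against 1170 CPM in H2AZ fl/fl, Tmsb10 had the highest ratio of the 9, 1.37 (1.33 to 1.404), or 0.45 on the log2 scale. It lies on chr6:72957347-72958748, minus strand (ENSMUSG00000079523). Among the 406 abundant genes Tmsb10 ranked 4 and Tmsb4x ranked 5 by log2 ratio, after Xist and the mitochondrial genes mt-Nd6 and mt-Nd5.

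Because Tmsb4x is X-linked and Xist differed between the libraries, the X chromosome was looked at as a whole. Of 508 X-linked genes that reached 1 CPM, 252 (49.6%) had a log2 ratio above 0 and 256 below 0, and the median was -0.0052. Of autosomal genes 51.0% lay above 0, with a median of 0.0061. The part of the Xist difference in the ratio of Tmsb4x was not tested. The thymosins together stood at 3374 CPM in H2AZ cKO, against 2519 CPM in H2AZ fl/fl, a ratio of 1.34 (1.32 to 1.36). Tmsb10 made up 47.5% of thymosin counts in H2AZ cKO, against 46.5% in H2AZ fl/fl, so the Tmsb10 to Tmsb4x ratio differed by 1.04-fold (1.01 to 1.08).

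Marcksl1, which encodes the smaller MARCKS-like protein, was the most counted of the 9, with 24496 counts in H2AZ cKO, against 20634 counts in H2AZ fl/fl. At 2810 CPM in H2AZ cKO, against 2288 CPM in H2AZ fl/fl, its ratio was 1.23 (1.21 to 1.251) and its log2 ratio 0.30. It lies on chr4:129513581-129515985, plus strand (ENSMUSG00000047945). Marcks, which encodes the longer founding member of the family, had 10182 counts in H2AZ cKO, against 9041 counts in H2AZ fl/fl. Its level of 1168 CPM in H2AZ cKO, against 1003 CPM in H2AZ fl/fl, gave a ratio of 1.17 (1.13 to 1.199), or 0.22 on the log2 scale. Marcks lies on chr10:37133375-37138920, minus strand (ENSMUSG00000069662). Marcksl1 held 70.6% of the counts of the pair in H2AZ cKO, against 69.5% in H2AZ fl/fl, a 1.05-fold difference in their ratio (1.02 to 1.09).

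Cfl1, the main nonmuscle cofilin, had 14982 counts in H2AZ cKO, against 13582 counts in H2AZ fl/fl. Its level was 1719 CPM in H2AZ cKO, against 1506 CPM in H2AZ fl/fl, a ratio of 1.14 (1.11 to 1.17), and it lies on chr19:5490485-5494029, plus strand (ENSMUSG00000056201). Cfl1 overlaps Snx32 on the opposite strand over 2967 bases, and the sources used here do not say whether counting used strand. Snx32 had 379 counts in H2AZ cKO, against 380 counts in H2AZ fl/fl.

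Pfn1, the broadly expressed profilin, had 3209 counts in H2AZ cKO, against 2885 counts in H2AZ fl/fl. Its level was 368 CPM in H2AZ cKO, against 320 CPM in H2AZ fl/fl, a ratio of 1.15 (1.09 to 1.21), and it lies on chr11:70651850-70654644, minus strand (ENSMUSG00000018293). Pfn2, the profilin enriched in neurons, had 3272 counts in H2AZ cKO, against 3180 counts in H2AZ fl/fl. At 375 CPM in H2AZ cKO, against 353 CPM in H2AZ fl/fl, its ratio of 1.06 (1.01 to 1.12) was the lowest of the 9, and it lies on chr3:57841895-57848079, minus strand (ENSMUSG00000027805). With counts scaled by their total, by DESeq2 size factors or as deposited, the interval of Pfn2 took in 1, which left 8 of 9 intervals above it. Pfn1 made up 49.5% of profilin counts in H2AZ cKO, against 47.6% in H2AZ fl/fl.

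Actb, the β-actin gene, had 21676 counts in H2AZ cKO, against 19286 counts in H2AZ fl/fl. Its level was 2487 CPM in H2AZ cKO, against 2139 CPM in H2AZ fl/fl, a ratio of 1.16 (1.14 to 1.19), and it lies on chr5:142903115-142906754, minus strand (ENSMUSG00000029580). Actg1, the γ-actin gene, had 14163 counts in H2AZ cKO, against 13483 counts in H2AZ fl/fl. At 1625 CPM in H2AZ cKO, against 1495 CPM in H2AZ fl/fl, its ratio was 1.09 (1.06 to 1.11), and it lies on chr11:120345690-120348542, minus strand (ENSMUSG00000062825). Actb held 60.5% of the counts of the pair in H2AZ cKO, against 58.9% in H2AZ fl/fl, so their ratio differed by 1.07-fold (1.04 to 1.103). Actb often serves as a loading reference, and scaling these libraries to it would divide every other ratio by 1.16.

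**Figure D2:**
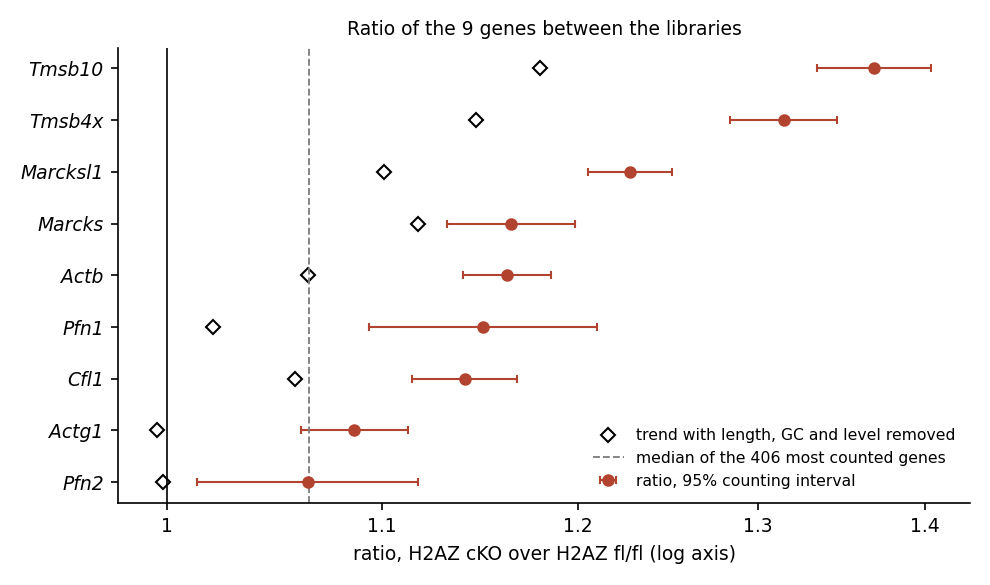
Ratio of H2AZ cKO over H2AZ fl/fl (log axis) for each of the 9 genes, 1 library each, with its 95% counting interval (filled points), the ratio after removal of a trend on transcript length, GC content and level (open diamonds) and the median of the 406 abundant genes (dashed line). The thymosins lie to the right at 1.31 and 1.37, and Pfn2 lies nearest to 1 at 1.06.

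Ratios between roles do not depend on library scaling, but the trend on transcript length, GC content and level was not removed from them. The fitted trend, on the log2 scale, was 0.196 to 0.214 for the thymosins and 0.126 to 0.127 for the actins. Thymosins made up 45.1% of thymosin plus actin counts in H2AZ cKO, against 40.9% in H2AZ fl/fl, so the thymosin to actin ratio was 1.18-fold higher in H2AZ cKO (1.16 to 1.21). The profilin to actin ratio in H2AZ cKO was 0.977 times that in H2AZ fl/fl (0.941 to 1.01), and the Cfl1 to actin ratio 1.01 times (0.981 to 1.04). Both of these intervals take in 1.

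Per kilobase of mature transcript, the thymosins had the highest levels of the 9. Tmsb10 stood at 2321 CPM per kb in H2AZ cKO, against 1696 in H2AZ fl/fl, and Tmsb4x at 2308 in H2AZ cKO, against 1756 in H2AZ fl/fl, with counting intervals that overlap between the genes in each library. Marcksl1 stood at 1751 CPM per kb in H2AZ cKO, against 1426 in H2AZ fl/fl. Actb followed with 1295 CPM per kb in H2AZ cKO, against 1114 in H2AZ fl/fl, and Actg1 with 832 in H2AZ cKO, against 766 in H2AZ fl/fl. These genes keep the same order in both libraries except for the thymosins, which trade places.

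Cfl1 stood at 730 CPM per kb in H2AZ cKO, against 640 in H2AZ fl/fl, on its 2354-base transcript. On the 1148-base transcript, whose ends are those of the deposited positions, it stood at 1497 in H2AZ cKO, against 1312 in H2AZ fl/fl, above Actb. Pfn1 stood at 428 CPM per kb in H2AZ cKO, against 372 in H2AZ fl/fl. Marcks, with a 4048-base transcript, stood at 289 CPM per kb in H2AZ cKO, against 248 in H2AZ fl/fl, and Pfn2 at 160 in H2AZ cKO, against 151 in H2AZ fl/fl. Several of the 9 have other annotated transcripts, so these levels and their order are tied to the transcript used. On a 771-base transcript Cfl1 stood at 2229 CPM per kb in H2AZ cKO, against 1954 in H2AZ fl/fl. In H2AZ fl/fl this is above both thymosins as given here. The thymosins have shorter transcripts too: on a 433-base one Tmsb10 stood at 3698 in H2AZ cKO, against 2703 in H2AZ fl/fl.

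The log2 ratio of abundant genes went with transcript length. Of the 406 abundant genes, the 30 with transcripts under 1000 bases had a median log2 ratio of 0.21, the 96 of 1000 to 2000 bases 0.17, the 162 of 2000 to 4000 bases 0.082, and the 118 longer ones -0.018. Tmsb10, Tmsb4x and Pfn1 are in the shortest class, with 690, 768 and 861 bases, and there Tmsb10 ranked 2 and Tmsb4x ranked 3, after mt-Nd6. The 33 ribosomal protein genes among the 406 had a median log2 ratio of 0.22, the same to 2 decimals as that of the 9 genes, 0.22, and all 33 lay above 0. The part of transcript length in the ratios of the 9 was examined only through the trend removal that follows.

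**Figure D3:**
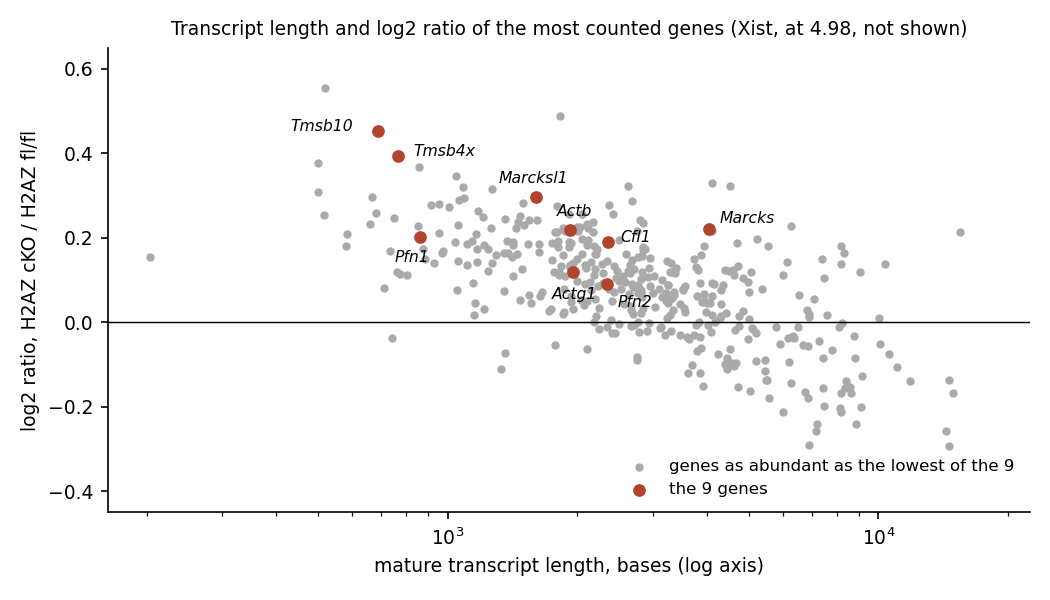
Log2 ratio of H2AZ cKO over H2AZ fl/fl against mature transcript length in bases (log axis) for the 406 genes at least as abundant as the lowest of the 9, with the 9 in red and Xist, at 4.98, off the axis. Shorter transcripts sit higher, and Tmsb10 and Tmsb4x rank 2 and 3 among those under 1000 bases.

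After removal of a joint trend on length, GC content and level, log2 ratios stood at 0.24 for Tmsb10, 0.20 for Tmsb4x, 0.16 for Marcks and 0.14 for Marcksl1. The central 95% of the 406 genes then ran from -0.19 to 0.20. Actb stood at 0.091, Cfl1 at 0.082 on its 2354-base transcript, or 0.024 on the 1148-base one, and Pfn1 at 0.030, while Pfn2 and Actg1 lay just below 0, at -0.00263 and -0.00632. The median of the 9 was then 0.091, with 7 of 9 above 0. By rank among the 406, Tmsb10 then stood at 7, Tmsb4x at 11, Marcks at 22 and Marcksl1 at 34, where Marcks had been at 55 and Marcksl1 at 15 before. Since length, GC content and level entered 1 fit, the removal does not say which of them mattered.

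**Figure D4:**
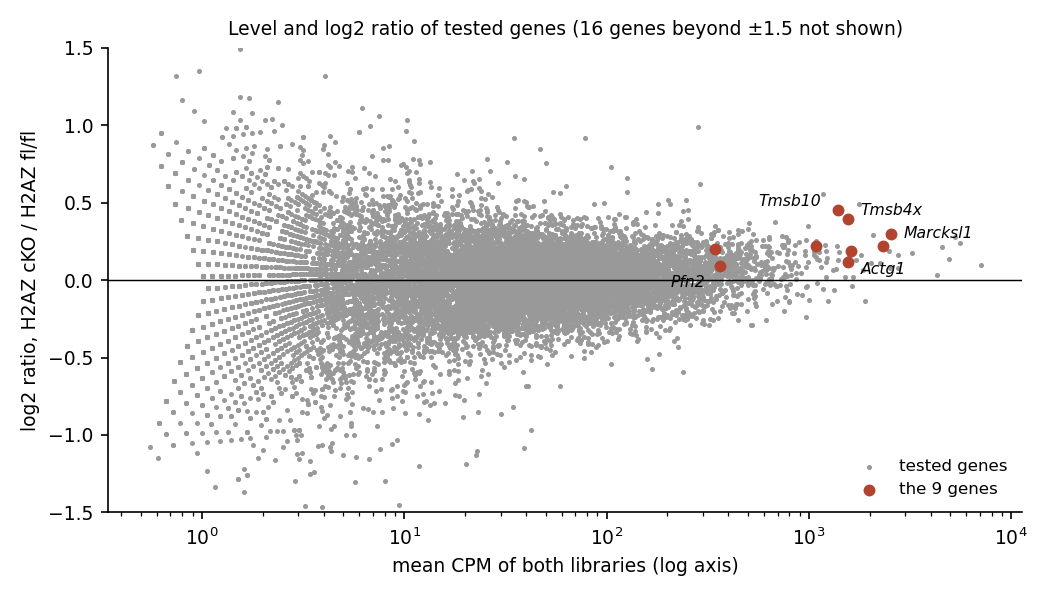
Log2 ratio of H2AZ cKO over H2AZ fl/fl against mean level in CPM (log axis) for genes that reached 1 CPM, with the 9 in red and 16 genes off the axis. All 9 lie above 0 at the abundant end, where the central 95% of the 406 genes runs from -0.20 to 0.32.

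Other genes, among them processed pseudogenes, can share reads with these messages. No stretch of 50 bases of Tmsb4x, Pfn1 or Pfn2 occurs in another annotated gene, against 43.5% of such stretches for Tmsb10, 23.0% for Cfl1, 14.2% for Actb and 56.7% for Actg1. For Actg1 the largest partner was the processed pseudogene Gm12715, and for Tmsb10 the predicted gene Gm9844, annotated as protein-coding. For Cfl1 it was the protein-coding Snx32, with 16.2% of stretches, and for Actb the protein-coding Lrrc58, with 9.57%. Lrrc58 had 824 counts in H2AZ cKO, against 870 counts in H2AZ fl/fl. The rows of the pseudogene and predicted copies held few counts, so adding them could move the ratios little. Many pseudogenes that share stretches have no row in the deposited table and could not be added. Among them were Actg-ps1 and Gm16385, with 22.3% and 15.5% of the stretches of Actg1, and Gm3788, with 10.3% of those of Tmsb10. Copies of Tmsb10 had 32 counts in H2AZ cKO, against 24 counts in H2AZ fl/fl, and the Cfl1 copy Gm6180 had 89 counts in H2AZ cKO, against 79 counts in H2AZ fl/fl. Adding these copies alone, without Snx32 or Lrrc58, to their parent left the ratios at 1.37 for Tmsb10, 1.14 for Cfl1, 1.16 for Actb and 1.09 for Actg1. The sources used here do not say how reads with several matches were treated, so the levels of Tmsb10, Cfl1, Actb and Actg1 are uncertain in that respect.

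In the authors' deposited table, 8 of the 9 genes had an adjusted p under 0.05, as did 9.55% of all genes and 56.7% of the 406 abundant ones. The smallest of the 9 in the authors' deposited table was that of Tmsb10, at 1.95e-106 with a fold of 1.33, and the exception was Pfn2, at 0.435 with a fold of 1.03. That test set 1 column against 1 column, and no source used here names it. None of the 9 was marked significant in the authors' deposited table, where 0.896% of all genes carry the mark.

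Serum response factor (SRF) switches on many actin cytoskeleton genes when single actin molecules are scarce, and it binds a motif called the CArG box. In the RefSeq promoter windows (GRCm38.p6, 250 bases before to 50 after the start), 7 of the 9 genes matched, all but Marcks and Actb, with 9 windows in all. Of these windows, that of Actg1 was the one with an exact CArG box, searched on both strands, which 1.63% of all 32851 windows hold. The part of it upstream of the deposited gene is shown for that reason, chr11:120348543-120348745, minus strand, with the box in capitals, starting 90 bases before the RefSeq start.
Actg1 promoter: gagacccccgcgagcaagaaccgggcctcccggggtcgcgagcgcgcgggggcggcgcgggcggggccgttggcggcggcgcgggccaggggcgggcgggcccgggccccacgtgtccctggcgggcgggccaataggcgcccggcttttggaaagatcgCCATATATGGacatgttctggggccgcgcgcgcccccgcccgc
Cfl1 had 1 match with 1 mismatch, a class that together with exact matches covers 21.1% of windows. A match is a string of letters and not a binding site.

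Srf itself stood at 58.9 CPM in H2AZ cKO, against 57.0 CPM in H2AZ fl/fl, a ratio of 1.03 (0.912 to 1.17). Its cofactor Mrtfa had a ratio of 0.911 (0.812 to 1.02), and its cofactor Mrtfb, at 24.1 CPM in H2AZ cKO, against 31.5 CPM in H2AZ fl/fl, a ratio of 0.765 (0.637 to 0.918). Of 14 genes in a list of SRF, its cofactors and targets outside the 9, 7 lay above 0 and 7 below, and the median log2 ratio was 0.021. Tagln2, a calponin-family actin binder, had 503 counts in H2AZ cKO, against 379 counts in H2AZ fl/fl. Vcl, which encodes the adhesion protein vinculin, had 44 counts in H2AZ cKO, against 76 counts in H2AZ fl/fl, and Junb, an immediate early gene, 32 counts in H2AZ cKO, against 56 counts in H2AZ fl/fl. These targets thus lay on both sides of 0.

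Over all genes that reached 1 CPM the median log2 ratio was 0.0060. Of 8 monomer-binding genes outside the 9, 3 lay above 0 and 5 below, and their median log2 ratio was -0.057. Twf2, a twinfilin, stood at 44.2 CPM in H2AZ cKO, against 34.5 CPM in H2AZ fl/fl, while Cap2, a cyclase-associated protein, stood at 15.4 CPM in H2AZ cKO, against 19.6 CPM in H2AZ fl/fl. Of 19 severing genes and their regulators outside the 9, 9 lay above 0 and 10 below, and the median log2 ratio was -0.051. Dstn, a close relative of Cfl1, stood at 383 CPM in H2AZ cKO, against 335 CPM in H2AZ fl/fl, a ratio of 1.14 (1.09 to 1.199), and the muscle-type cofilin Cfl2 had a ratio of 1.06 (0.988 to 1.14).

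Of 12 protein kinase C and calmodulin pathway genes at the membrane, 6 lay above 0 and 6 below, and the median log2 ratio was -0.012. Abundant ones among them lay above 0: the calmodulin gene Calm2 had a ratio of 1.19, and the growth-cone genes Basp1 and Gap43 had ratios of 1.17 and 1.14. Prkca, which encodes a protein kinase C, stood at 24.9 CPM in H2AZ cKO, against 32.3 CPM in H2AZ fl/fl.

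All 10 genes of the Arp2/3 complex and its relatives, which nucleate branched filaments, lay above 0, and their median log2 ratio was 0.14, or 0.054 after the trend removal. The interval lay wholly above 1 for 4 of the 10, beside 12.6% of all genes that reached 1 CPM, of which 51% lay above 0. Arpc3 stood at 196 CPM in H2AZ cKO, against 172 CPM in H2AZ fl/fl, and Arpc4 at 85.6 CPM in H2AZ cKO, against 70.6 CPM in H2AZ fl/fl. Their WAVE and WASP activators were split, 7 above and 7 below 0, and of 15 formin and Ena/VASP genes, which elongate filaments, 6 lay above and 9 below.

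Of 10 capping genes 7 lay above 0, of 16 crosslinking genes 10, and of 10 tropomyosin and nonmuscle myosin genes 8. Over all genes that reached 1 CPM, 51% lay above 0. The median log2 ratios of these 3 lists were 0.080, 0.032 and 0.076, or 0.062, -0.0026 and 0.016 after the trend removal. With counts scaled by their total they were 0.042, -0.0041 and 0.038. Flna, a filamin that crosslinks filaments, stood at 411 CPM in H2AZ cKO, against 457 CPM in H2AZ fl/fl.

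**Figure D5:**
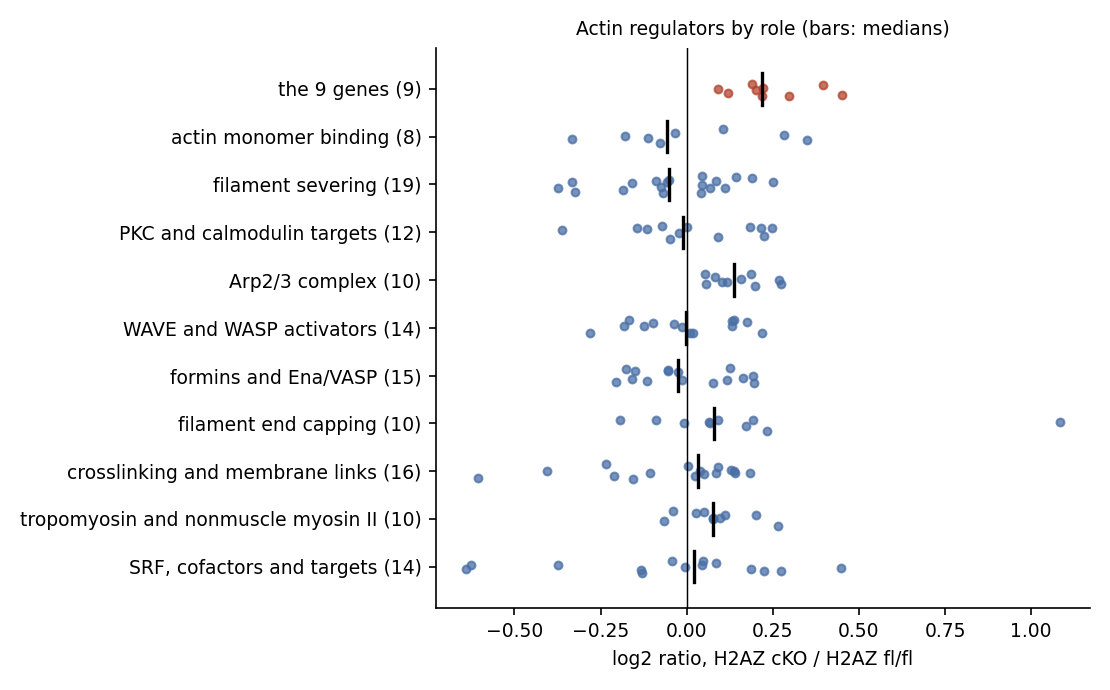
Log2 ratio of H2AZ cKO over H2AZ fl/fl for the genes that reached 1 CPM in the actin pathway lists described, with each list's median. The 10 Arp2/3 genes lie above 0, while the monomer-binding list outside the 9 has 3 above and 5 below.

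Muscle actins were near the limit of detection: Acta1 had 11 counts in H2AZ cKO, against 14 counts in H2AZ fl/fl, and Acta2 had 7 counts in H2AZ cKO, against 3 counts in H2AZ fl/fl. Microglia, which are rich in Tmsb4x, and blood cells were followed through their markers. The 14 microglia and macrophage markers summed to 66.0 CPM in H2AZ cKO, against 49.7 CPM in H2AZ fl/fl, with 11 of 13 that reached 1 CPM above 0 and none at 0 counts. The 10 erythroid markers summed to 691 CPM in H2AZ cKO, against 365 CPM in H2AZ fl/fl, with 8 of 9 above 0. Endothelial markers summed to 147 CPM in H2AZ cKO, against 154 CPM in H2AZ fl/fl, with 3 of 10 above 0. The interval lay wholly above 1 for 3 of the 13 microglia and macrophage markers, 8 of the 9 erythroid ones and 0 of the 10 endothelial ones. Over all genes that reached 1 CPM, 51% lay above 0, and the interval lay wholly above 1 for 12.6%. The level of Tmsb4x differed by 424 CPM, and the part of microglia, blood and endothelial cells in that difference was not tested.

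By level in both libraries, the gene nearest to Tmsb10 was Basp1, to Marcks Rplp0, to Marcksl1 mt-Nd2 and to Actb Tubb3. The nearest to Tmsb4x, Cfl1 and Actg1 was mt-Atp8, to Pfn1 Cct3 and to Pfn2 Smarce1. The distances, on the log2 scale over both libraries, ran from 0.014 for Pfn2 to 0.18 for Tmsb4x.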

How the data were processed

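Counts are whole numbers per Ensembl gene in the authors' deposited table, with 1 column per genotype, and the column headed WT was taken as H2AZ fl/fl, the other genotype of the series. The authors also deposited CPM values, the fold ratio of these, its log2, and p-values. HTSeq 0.6.0, TopHat2 2.0.12, Bowtie2 2.2.3 and the build mm9 stand in the submitters' processing notes, while 8 of the 9 positions are identical to those of GENCODE M21 (GRCm38), which supplied lengths and GC content. Symbols were matched for 19112 genes and not for 90. The sources used here do not give strand use or the treatment of reads with several matches.

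Counts were scaled by TMM with edgeR 4.0.16 in R 4.3.3 (factors 0.986 for H2AZ cKO and 1.01 for H2AZ fl/fl). DESeq2 1.42.0 gave the size factors of an alternative. Other steps ran in Python 3.11.15 (scipy 1.17.1, numpy 2.4.6, pandas 2.3.3, matplotlib 3.10.9). Each log2 ratio, on log2(CPM + 1), sets H2AZ cKO over H2AZ fl/fl and understates the change of low genes. It was taken for 14586 genes at 1 CPM or more in the higher library. A count of 0 allows 0.339 CPM for H2AZ cKO and 0.337 CPM for H2AZ fl/fl, the level of 3 counts. Intervals of a gene's ratio are exact (Clopper-Pearson) at 95%, those of a ratio between genes are log-normal approximations, and both cover counting error only. The gene intervals and the trend removal were tested on simulated data. Those counts were independent draws with an added trend on length alone. The simulation therefore does not cover duplicate reads or a trend on GC content or level. Alternatives were other scalings, pseudocounts, level floors and sizes, pooling with pseudogenes, leaving out Tmsb4x, and removal of the trend on length, GC content and level.

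The members and the gene lists were chosen with earlier results of these data known. The naming rule took all 9 members, up to 4 genes of each list with the largest absolute log2 ratio at 5 CPM or more, a few fixed genes, the gene nearest each member in level, and pseudogene copies. Emx1, Snx32, Lrrc58, mt-Nd5 and mt-Nd6 fall outside it and were named after their values were seen. A few genes and 1 list are not reported here.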

Additional observations from a re-analysis of the deposited data

How the results depend on the processing

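The median log2 ratio of the 9 genes, 0.22 as reported, was 0.18 with counts scaled by their total, 0.18 with the CPM as deposited, 0.091 after removal of the trend on length, GC content and level, and 0.091 after that removal with the shorter Cfl1 transcript (an alternative chosen after seeing the data, under which Cfl1 itself stood at 0.024). Scaling by total and the deposited CPM shift the median of all genes by -0.041. The number of genes at least 25% higher, 2 as reported, was 0 after the trend removal, 0 after it with the shorter Cfl1 transcript, 7 at a size of 10% and 0 at a size of 50%. After the trend removal Pfn2 reversed to -0.00263 and Actg1 to -0.00632, and the cause was not tested. Under pseudocounts of 0.1 and 5 CPM, DESeq2 scaling and pooling with pseudogenes, the 9 log2 ratios stayed above 0. Genes this abundant move little under such pseudocounts, and the pooled copies held few counts. DESeq2 scaling shifted the median of all genes by -0.024, against a lowest log2 ratio of 0.090 among the 9. Nothing is therefore read from the unchanged signs. With 1 library per genotype, the spread between embryos is unknown, and depth bears on counting error alone. No paired analysis was possible because each genotype has 1 library.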
